A study of Rattus norvegicus with 5 samples.

Results

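The genes of the classical complement cascade were described in the parietal cortex of young rats with kaolin-induced hydrocephalus. The set comprised C1qa, C1qb, C1qc, C1r, C1s, C2, C3, C4a, C4b and Serping1, and every non-control probe of the array whose current or older rat symbol is one of these was taken. That gave 13 of the 41012 probes of the array and 9 of the 10 genes, out of 15179 genes that could be named. The single C4 probe lists transcripts of both C4a and C4b, so C4b had no probe of its own and the probe, called C4a below, cannot separate the pair.

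Rat pups received kaolin, a clay suspension used to obstruct the flow of cerebrospinal fluid, or saline on postnatal day 1, stayed with the dam, and were sampled on postnatal day 22, which is day 21 after kaolin. Total RNA of 1 kaolin sample, labelled with Cy3, and 1 saline sample, labelled with Cy5, was hybridised to each of 5 Agilent arrays, replicates 1 to 5. The dyes were never exchanged, so dye and treatment cannot be told apart. The labels give neither a strain nor whether a sample is 1 animal or a pool, so the spread between arrays may be partly technical.

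The classical pathway starts when C1q, built from A, B and C chains, binds an antibody complex, apoptotic debris or a synapse and activates the proteases C1r and C1s that it carries. C1s cleaves C4 and C2, whose fragments form the convertase that cleaves C3, and fragments of C3 then tag the surface for receptors on phagocytes. Serping1 encodes C1 inhibitor, which inactivates C1r and C1s. In the brain C1q is made mainly by microglia, while C3 and C4 are also made by reactive astrocytes, and the pathway is known for tagging synapses that microglia remove during development.

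The C1q genes lie next to each other on chromosome 5 in the order C1qb, C1qc, C1qa in the RefSeq gene table of the GRCr8 assembly. C1r and C1s are neighbours on chromosome 4, and C2 is the neighbour of the alternative pathway gene Cfb on chromosome 20. The RefSeq promoter table held 6 of the 10 genes: C1qa, C1qb, C1r, C3, C4a and C4b. The 250 bases before the start are shown for the first and second C1q chains, which share a locus, and for C3, which had the highest mean ratio. Capitals mark the letters of a searched motif, and each is written 5′ to 3′ on the strand of the gene. All 3 genes lie on the minus strand of GRCr8, at chr5:154419934-154420183 for C1qa, chr5:154407828-154408077 for C1qb and chr9:2201340-2201589 for C3.
C1qa: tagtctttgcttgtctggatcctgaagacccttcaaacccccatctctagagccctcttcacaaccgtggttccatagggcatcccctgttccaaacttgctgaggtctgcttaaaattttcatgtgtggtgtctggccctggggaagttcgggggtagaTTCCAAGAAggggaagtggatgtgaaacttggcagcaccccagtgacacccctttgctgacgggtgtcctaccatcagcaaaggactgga
C1qb: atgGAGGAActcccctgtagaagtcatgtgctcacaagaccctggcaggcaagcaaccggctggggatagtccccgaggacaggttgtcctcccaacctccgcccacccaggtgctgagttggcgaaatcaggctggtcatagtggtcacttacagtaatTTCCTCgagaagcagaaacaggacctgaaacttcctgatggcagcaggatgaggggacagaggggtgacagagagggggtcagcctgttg
C3: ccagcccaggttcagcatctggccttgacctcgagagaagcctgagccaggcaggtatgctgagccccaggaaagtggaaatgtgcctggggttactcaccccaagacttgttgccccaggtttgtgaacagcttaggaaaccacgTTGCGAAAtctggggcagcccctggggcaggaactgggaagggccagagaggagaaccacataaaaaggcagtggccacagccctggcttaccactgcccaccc

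4 motifs of factors that act in myeloid or inflammatory transcription were searched on both strands. For PU.1 only the motif GAGGAA was searched, and no other letters. It was in 3 of the 6 promoters, those of C1qb, C1r and C4b, and in 23.3% of the 33469 rat promoters of the same length. C1qb carried it at 247 and, on the other strand, at 90 bases before the start. The STAT element TTCNNNGAA was in C1qa alone of the 6, at 90 bases before the start, and in 7.67% of all promoters. The C/EBP element TTGCNNAA was in C1r and C3, in C3 at 104 bases before the start, and in 9.22% of all promoters. The IRF element, GAAA and again GAAA after any pair of bases, was in 0 of the 6 and in 3.41% of all promoters. These matches describe letters in this window and were not linked to the values below.

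The arrays held 27372 to 29385 probes well above background per channel, and no spot was saturated. All 13 complement probes were well above background in both channels on all 5 arrays, so none of them passed the filter on dim probes through the kaolin samples alone. Replicates 1 and 2 stood apart from each other, with a correlation of -0.37 over all tested probes, so the direction of the ratio is not settled by the arrays themselves. It was taken from the dyes in the labels, as log2 of kaolin over saline, and the complement values are also given below with the sign of replicate 2 turned.

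Classical complement transcripts were measured at higher levels in kaolin than in saline cortex on replicates 3, 4 and 5 and lay near equality on replicates 1 and 2. The median log2 ratio over the 9 genes was 0.0086 on replicate 1, 0.13 on replicate 2, 2.21 on replicate 3, 1.88 on replicate 4 and 2.39 on replicate 5. In linear terms the median gene stood at 1.01-fold and 1.097-fold on the first pair of arrays and at 4.62-fold, 3.67-fold and 5.24-fold on the others. The ratio was positive for 5 of the 9 genes on replicate 1, for 8 on replicate 2 and for all 9 on each of replicates 3, 4 and 5. Of all 29114 tested probes, 47.5% and 24.9% lay above the complement median on replicates 1 and 2, against 0.330%, 0.278% and 0.206% on replicates 3, 4 and 5.

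**Figure D1:**
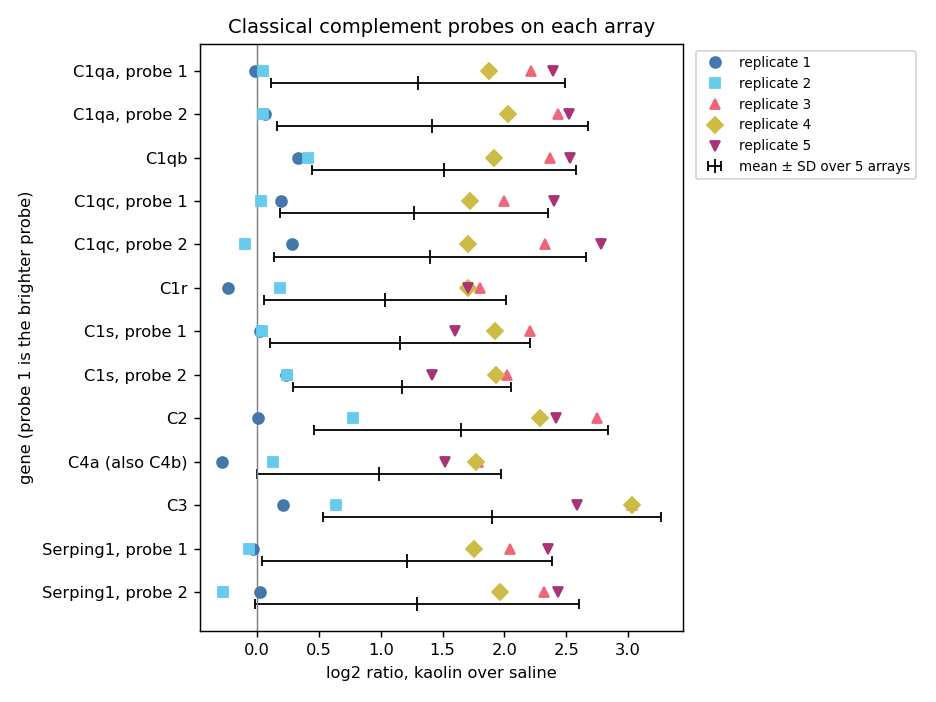
Log2 ratio of kaolin over saline (x axis) for each of the 13 classical complement probes (rows), with 1 point per array and the mean ± SD over the 5 arrays drawn below the points. Replicates 1 and 2 sit between -0.28 and 0.78 and replicates 3, 4 and 5 between 1.41 and 3.03, with no probe in between.

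No complement probe passed the test across all probes. With limma and Benjamini-Hochberg adjustment over 29114 probes, 0 of the 13 probes had an adjusted p under 0.05, as had 0.0% of all probes in either direction. Their adjusted p was 0.243 to 0.244, and 0.243 was the smallest adjusted p of any probe. The unadjusted p in limma was under 0.05 for 13 of 13 probes, from 0.00443 to 0.0236, which 8.82% of all probes reached with kaolin higher. The mean ratio was positive for 9 of 9 genes (49.2% of all tested probes), and 8 of the 9 had a mean of 1 or more on the log2 scale, which 0.508% of all probes reached. The ratio was positive on all 5 arrays for 7 of the 13 probes and for 6.23% of all probes, and with the sign of replicate 2 turned for 2 of the 13 and 12.2% of all probes. The median of the 9 gene means was 1.27, beside -0.0033 over all tested probes.

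The recognition molecule C1q was measured by 5 probes. For the A chain the log2 ratio of the brighter C1qa probe, at chr5:155662578-155662637 of the rn4 assembly, was -0.01, 0.05, 2.22, 1.88 and 2.39 on replicates 1 to 5. The mean was 1.30 ± 1.19 (SD, n = 5), or 2.47-fold, and the other C1qa probe had a mean of 1.42 ± 1.26. For the B chain the C1qb probe at chr5:155647536-155647595 read 0.33, 0.41, 2.37, 1.91 and 2.53, with a mean of 1.51 ± 1.06, or 2.85-fold. C1qb had the highest ratio of the 9 genes on replicate 1. It had the smallest p of the 9 as labelled, but with the sign of replicate 2 turned C1qc had a smaller adjusted p in limma (0.0869 against 0.105).

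For the C chain, which the array still names C1qg, the brighter probe at chr5:155656638-155656697 read 0.19, 0.03, 1.999, 1.72 and 2.40, a mean of 1.27 ± 1.08. Its other probe, at chr5:155658964-155659023, read 0.28, -0.10, 2.33, 1.70 and 2.78. All 5 C1q probes were lowest on replicates 1 and 2 and highest on replicate 5. The brighter probes of the chains, whose products are needed in equal number to build C1q, lay between -0.01 and 0.33 on replicate 1, between 0.03 and 0.41 on replicate 2, between 1.999 and 2.37 on replicate 3, between 1.72 and 1.91 on replicate 4 and between 2.39 and 2.53 on replicate 5.

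The C1 proteases were next. C1r, the protease that C1q activates first, was read by a probe at chr4:160728630-160728689 of rn4. Its log2 ratio was -0.23, 0.19, 1.80, 1.71 and 1.71, a mean of 1.03 ± 0.98 (SD, n = 5), or 2.05-fold. C1s, which C1r cleaves and which in turn cleaves C4 and C2, read 0.02, 0.04, 2.21, 1.92 and 1.60 with its brighter probe at chr4:160736725-160736784, a mean of 1.16 ± 1.05. Its other probe, at chr4:160737164-160737223, read 0.23, 0.24, 2.02, 1.93 and 1.41, a mean of 1.17 ± 0.88. Both C1s probes were lower on replicate 5 than on replicate 3, by 0.61 each, whereas both C1qc probes were higher on replicate 5.

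Of the convertase components, C2 supplies the protease that cleaves C3. Its probe at chr20:4071504-4071563 read 0.01, 0.78, 2.74, 2.29 and 2.41, a mean of 1.65 ± 1.19 (SD, n = 5), or 3.13-fold. The value on replicate 2 was the highest of the 9 genes there, and is the lowest of them if that array's sign is turned. C4, the first substrate of C1s, was read by the shared probe placed at chr20:4116778-4117756, and had the lowest mean of the 9 genes. It read -0.28, 0.13, 1.79, 1.77 and 1.52, a mean of 0.99 ± 0.98, or 1.98-fold.

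C3, the protein on which all complement pathways converge, read 0.21, 0.64, 3.03, 3.03 and 2.59 with its 1 probe, placed on an unassigned rn4 scaffold (chrUn:64513437-64513496). The mean was 1.90 ± 1.37 (SD, n = 5), or 3.74-fold, and was the highest of the 9 genes. C3 also had the highest ratio of the 9 on each of replicates 3, 4 and 5. With the main processing, C3 minus each of the other 8 genes averaged from 0.26, for C2, to 0.92, for C4a, on the log2 scale. Since C3 was picked for its high mean, these differences are a description and were not tested. With the sign of replicate 2 turned, C3 kept the highest mean but stood above only 1 of the other 8 genes on that array.

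The gene for the inhibitor had ratios close to those of C1q. Serping1 read -0.03, -0.06, 2.05, 1.76 and 2.35 with its brighter probe at chr3:67968828-67968887, a mean of 1.21 ± 1.17 (SD, n = 5), or 2.32-fold. Its other probe, placed over chr3:67975119-67976458, read 0.02, -0.27, 2.32, 1.96 and 2.44, a mean of 1.29 ± 1.31. Both were highest on replicate 5, as were all C1q probes. Gene models of rn4 were not used here, so whether a probe lies in a coding exon or a UTR is not given.

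The 4 genes with more than 1 probe show how far probes of a gene differed within an array. The brighter probe minus the other averaged -0.11 ± 0.08 for C1qa, -0.13 ± 0.22 for C1qc, -0.01 ± 0.20 for C1s and -0.08 ± 0.19 for Serping1 (SD, n = 5 arrays). The widest disagreement on any array was 0.37, for C1qc on replicate 5. Probes of a gene on an array read the same labelled RNA, so these differences do not cover the spread between samples.

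The channel levels, log2 intensities after normalization within and between arrays, differed between arrays more in the kaolin than in the saline samples. For C1qa the kaolin level was 11.53, 11.43, 13.99, 13.50 and 14.19 on replicates 1 to 5, and the saline level was 11.54, 11.38, 11.78, 11.62 and 11.80. The kaolin samples of replicates 1 and 2 lay among the saline samples, and the other 3 lay above all of them. The same held for most probes: the kaolin level exceeded every saline level for 13 of 13 probes on each of replicates 3, 4 and 5, but for 1 probe on replicate 1 and 2 on replicate 2. Of all tested probes, 25.5%, 17.8%, 27.0%, 21.8% and 24.8% did so on replicates 1 to 5. The kaolin and saline groups did not overlap for 1 of the 13 probes, the dimmer C1s probe, whose lowest kaolin level was 7.77 and highest saline level 7.65, and for 1.45% of all probes with kaolin higher. The kaolin range was wider than the saline range for 13 of 13 probes, against 69.0% of all probes, and ran from 1.86 to 4.39.

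**Figure D2:**
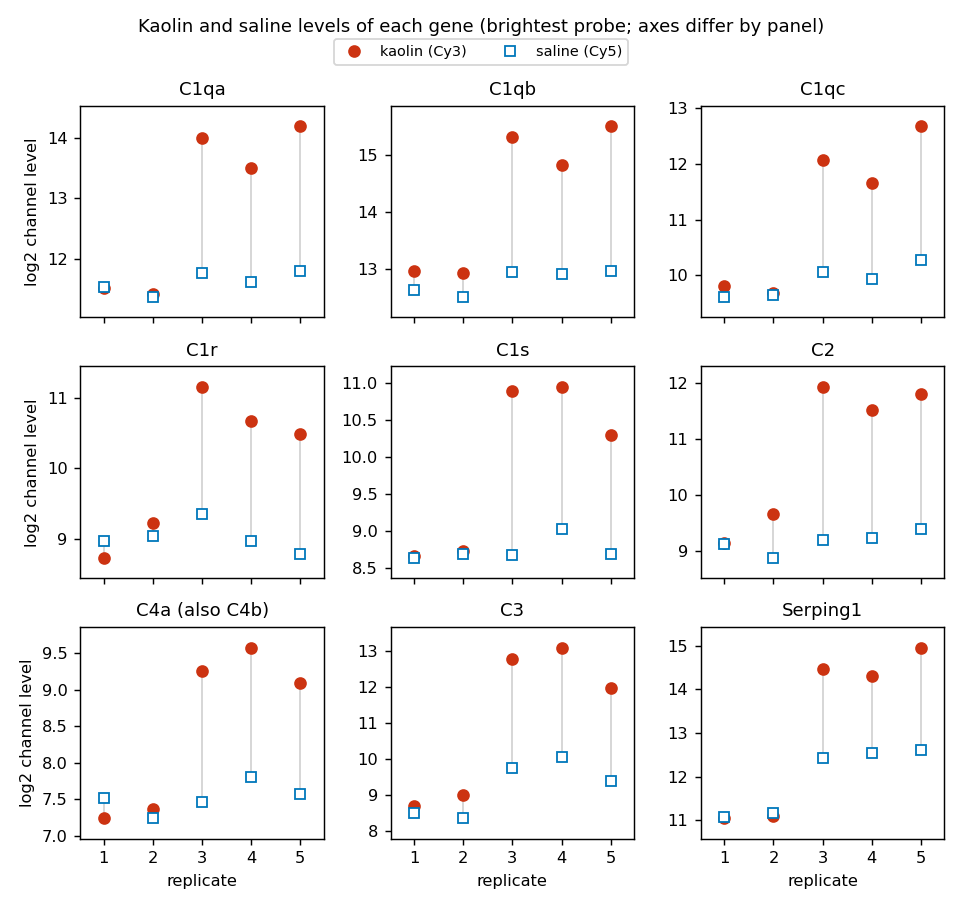
Log2 channel level (y axis, scale differs by panel) of the brightest probe of each gene in the kaolin sample (filled, Cy3) and the saline sample (open, Cy5) of each array (x axis, replicates 1 to 5). Kaolin levels of replicates 3, 4 and 5 lie above all saline levels in every panel, and the saline levels of C3 and Serping1 differ by 1.71 and 1.53 between arrays.

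In saline samples 11 of the 13 probes stayed within a range of 0.28 to 0.66, and C3 and the brighter Serping1 probe did not. The saline level of C3 was 8.48, 8.34, 9.74, 10.05 and 9.38, a range of 1.71, and its kaolin level was 8.69, 8.98, 12.78, 13.08 and 11.97. The saline level of Serping1 with the brighter probe was 11.08, 11.17, 12.43, 12.55 and 12.61, a range of 1.53, which 0.460% of all tested probes reached. Both were higher in the saline samples hybridised beside the 3 kaolin samples with high complement levels. By smaller amounts, so were C2 and the brighter probes of C1qa, C1qb and C1qc (for C1qc 9.61, 9.64, 10.06, 9.94 and 10.27). Of the 6 genes nearest to the complement median, given below, Hmox1 (8.39, 8.46, 10.01, 9.22 and 10.21) and Cd68 showed it and the rest did not. The other Serping1 probe did not show this, with saline levels of 7.81, 8.18, 7.85, 8.07 and 7.95. Nor did C1r, C1s, C4a or the other C1qa and C1qc probes. The part of the shared array in these saline levels was not tested.

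The genes differed in which of replicates 3 and 5 was higher. The highest ratio fell on replicate 5 for C1qa, C1qb, C1qc and Serping1, in all 7 of their probes, and on replicate 3 for C1r, C1s, C2, C3 and C4a, in all 6 of theirs. Replicate 3 minus replicate 5 was only 0.10 for C1r, -0.17 for C1qb and -0.17 and -0.09 for the C1qa probes. It was 0.33 for C2, 0.27 for C4a and -0.30 and -0.11 for the Serping1 probes. These gaps lie within the 0.37 by which probes of a gene could differ on an array. The gaps of C3 (0.44), C1s (0.61 in each probe) and C1qc (-0.40 and -0.45) were wider than that. Among all tested probes, 20.2% were highest on replicate 5 and 18.1% on replicate 3. The mean of the C1q chains minus the mean of C1r and C1s was 0.28, 0.05, 0.19, 0.02 and 0.79 on replicates 1 to 5, a mean of 0.27 ± 0.31 (SD, n = 5). This contrast was chosen after the values were seen and carries no test.

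With the sign of replicate 2 turned, the mean ratio remained positive for 9 of 9 genes and ranged from 0.93 for C4a to 1.65 for C3, with limma adjusted p of 0.0869 to 0.151. Under that setting 0.838% of all probes passed with kaolin higher, against 0.0% as labelled. The turn was prompted by the correlation of replicates 1 and 2 in these same data, so the smaller adjusted p adds no support. Replicate 5 was the 1 array on its slide, so a value within that slide rests on 1 array. Without replicate 2, 1 of the 13 probes passed the limma test, that of C1qb with a mean of 1.79 and an adjusted p of 0.0488, beside 2.41% of all probes with kaolin higher. When limma weighted the arrays by their spread, which gave replicate 4 a weight of 2.21 and replicate 2 a weight of 0.47, all 13 probes passed, at adjusted p of 0.0467, beside 4.38% of all probes with kaolin higher. The weights were estimated from these same ratios, so that count adds no support either.

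The rest of the complement system was read from a list of 38 genes, of which 36 had a probe and 26 were tested. Of these, 22 had a positive and 4 a negative mean, beside 49.2% positive among all tested probes. The unadjusted limma p was under 0.05 for 13 with kaolin higher, beside 8.82% of all probes, and for 0 with kaolin lower, and 0 passed after adjustment. Their median log2 ratio was 0.0037, 0.0088, 0.63, 0.45 and 0.65 on replicates 1 to 5, so replicates 3, 4 and 5 again had the 3 highest medians.

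The alternative pathway amplifies C3 cleavage, and the genes named here had positive means and an unadjusted p under 0.05 in limma. Cfb, the counterpart and neighbour of C2, read -0.28, 0.0022, 2.68, 2.71 and 1.71, a mean of 1.36 ± 1.44. Cfd, the protease that cleaves factor B, averaged 1.28 ± 1.58 (SD, n = 5). Cfi, which degrades C3b and C4b, averaged 1.23 ± 1.26. Properdin (Cfp), which stabilises the convertase, averaged 0.78 ± 0.86. The pathway's median was -0.16, 0.0022, 2.20, 1.69 and 1.51 over the arrays.

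Of the genes that initiate the cascade without C1, the lectin Fcna averaged 0.85 ± 0.79 (SD, n = 5), the lectin Fcnb 0.54 ± 0.61 and the lectin pathway protease Masp1 0.84 ± 0.70, each with an unadjusted limma p under 0.05. Averaged over its 3 tested probes, Masp1 stood at 0.44. The pentraxins Apcs and Crp stood at 0.10 and 0.08. Masp2, Mbl1 and Mbl2 were too dim to be tested, and no probe was named Ptx3. Among receptors, C5ar1 for the C5a fragment averaged 0.77 ± 0.90, C3ar1 for the C3a fragment 0.40 ± 0.47, and the subunits of the phagocyte receptor CR3, Itgam and Itgb2, 0.65 ± 0.70 and 0.29 ± 0.73. Cd93 averaged 0.06. C5ar2, Cr2 and Vsig4 were too dim to be tested, and no probe was named Itgax.

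The terminal components, which form the pore that lyses cells, had means near 0. C8g, C6, C9 and C8b averaged 0.15, 0.13, 0.12 and -0.05, with 0 of 4 at an unadjusted limma p under 0.05 with the offset of 50. The C9 ratio was positive on all 5 arrays, as for 6.23% of all probes. Its lowest kaolin level (6.504) lay just above its highest saline level (6.495), and 1.45% of all probes were without overlap and higher in kaolin. C5, C7 and C8a were too dim to be tested. Among regulators, Cd59, which blocks the pore, averaged 0.40 ± 0.35 and Cr1l, a membrane regulator of C3 convertases, 0.35 ± 0.28 (SD, n = 5), both at an unadjusted limma p under 0.05. The fluid-phase regulators Clu and Vtn averaged 0.31 ± 0.56 and 0.04 ± 0.25. Cd46 averaged -0.03, and the subunits of C4b-binding protein, C4bpb and C4bpa, -0.10 and -0.17. Centring on the median in place of loess turned the sign for Clu (-0.04), Vtn (-0.15), Cd93 (-0.13) and Cd46 (0.01), and put Cd59 at 0.12 and Cr1l at 0.11. Cd55 was too dim to be tested. With the software's processed signals, in place of normexp with an offset of 50, several means were over 1.5 times as far from 0. Cfi then stood at 2.23, C5ar1 at 1.25, C3ar1 at 0.999, Fcna at 1.28 and Fcnb at 0.93. C9, whose channel levels with the offset of 50 were only 6.34 to 6.60, stood at 0.46. Its limma adjusted p under that setting (0.246) was shared by C3, C2, C1qb and Masp1, among others. Benjamini-Hochberg adjustment can give many probes the same value, so the tie does not put C9 level with C3. C6 stood at 0.33, Apcs at 0.28, C4bpb at -0.23 and C4bpa at -0.35.

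**Figure D3:**
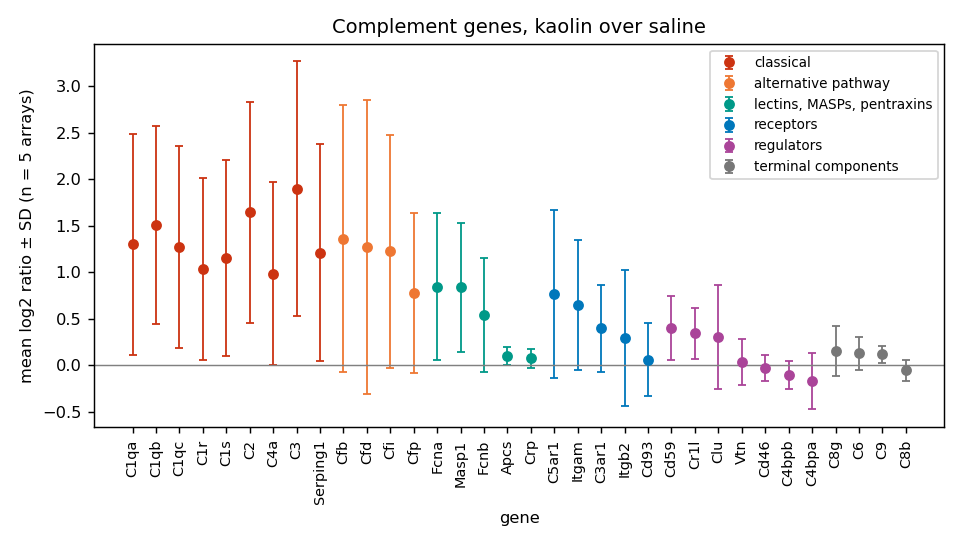
Mean log2 ratio of kaolin over saline (y axis) with SD over the 5 arrays for the 9 classical genes and the other complement genes whose means are given in the text (x axis), coloured by role. The classical means lie between 0.99 and 1.90, the alternative pathway means shown between 0.78 and 1.36, and the 4 terminal components between -0.05 and 0.15.

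The genes whose 5 ratios lay nearest to the complement median were searched among 11007 named genes well above background in both channels on all arrays. By root-mean-square distance on the log2 scale the nearest 6 were Tbxas1 (0.120), RT1-A2 (0.154), Cd68 (0.155), Hmox1 (0.176), Ctsc (0.203) and Ctsz (0.217). They encode thromboxane synthase, an MHC class I chain, a lysosomal glycoprotein of macrophages, heme oxygenase 1 and the lysosomal proteases cathepsin C and cathepsin Z. Tbxas1 read 0.16, 0.16, 2.11, 1.80 and 2.21 over the arrays, and Cd68 read -0.16, 0.03, 2.36, 1.66 and 2.48. C1qa itself lay 0.04 and C3 0.69 from the median. Distances over 5 arrays, of which 2 lie near 0, describe a shared pattern over arrays and nothing beyond it.

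Complement genes are made by several cell types, and in cortex tissue more cells of a type and more RNA per cell cannot be told apart. The microglia and macrophage markers also had their 3 highest medians on replicates 3, 4 and 5: the median over the 9 tested of 10 was -0.11, 0.07, 1.62, 0.75 and 1.38. All 9 had positive means, beside 49.2% of all tested probes. For 7 the unadjusted limma p was under 0.05 with kaolin higher, beside 8.82% of all probes, and 0 passed after adjustment. The mean level of these markers was 11.03 to 12.65 in kaolin samples and 10.99 to 11.18 in saline samples. Within the list the adaptor Tyrobp averaged 1.53 ± 1.105 (SD, n = 5), Trem2 1.01 ± 1.09 and Cd68 1.27 ± 1.26, whereas Cx3cr1 averaged 0.52 ± 0.60 and P2ry12 0.05 ± 0.38.

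Of the astrocyte markers, Gfap read 0.39, 0.60, 2.81, 2.31 and 2.95, but the median over the 6 was -0.21, 0.27, 0.27, 0.04 and 0.49, with mean levels of 12.07 to 13.06 in kaolin and 11.96 to 12.34 in saline samples. The meningeal fibroblast median over 5 markers was -0.31, -0.17, 0.87, -0.13 and 0.62, with mean levels of 10.26 to 11.48 in kaolin and 10.54 to 10.88 in saline samples. Infiltrating leukocyte markers gave medians from -0.16 to 0.13, and Ccr2, Cd3e and Mpo were among those too dim to be tested on these arrays. Of the liver plasma protein markers, Ahsg, Apoa2, Fga and Fgb were also too dim, and Alb averaged 0.03 ± 0.39. The choroid plexus median over 4 tested markers was -0.98, -1.43, -1.76, -0.73 and -0.09, with mean levels of 7.35 to 8.22 in kaolin and 7.58 to 10.28 in saline samples. The cortical neuron markers Snap25, Syt1, Slc17a7 and Rbfox3 were well above background in both channels on all arrays. The part of the microglial, astrocyte and meningeal markers in the complement ratios was not tested.

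**Figure D4:**
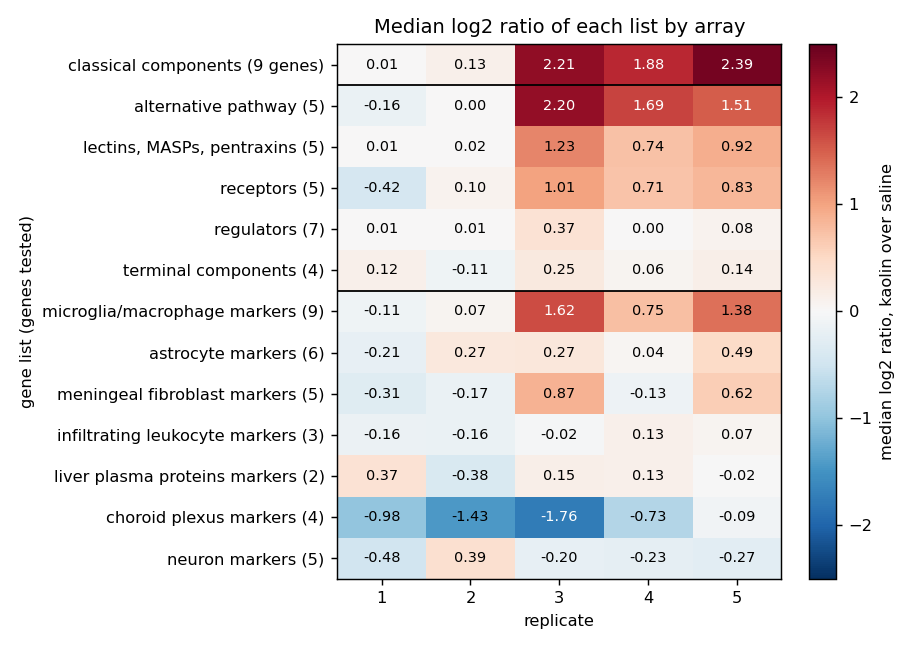
Median log2 ratio of kaolin over saline (colour and printed value) for the classical complement genes, the other complement groups and the cell type marker lists (rows, with the number of genes tested) on each of the 5 arrays (columns). The classical genes, the alternative pathway, the lectin group, the receptors and the microglia and macrophage markers have their 3 highest medians on replicates 3, 4 and 5. So do the meningeal fibroblast and infiltrating leukocyte markers, whose medians on replicate 4 are -0.13 and 0.13. The classical genes reach 2.39.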

How the data were processed

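The 5 deposited scanner files hold red and green intensity values, background intensity, flags and a log10 ratio per spot, as written, per the file headers, by Feature Extraction 10.1.1.1 of Agilent. The authors' deposited value table holds log2 ratios of Cy3 over Cy5 with no statement of their normalization. Its columns correlated with the software's Cy5 over Cy3 ratio at -1.00 to -0.978, which fixes their direction. The values of the report were computed from mean and background intensity with limma 3.58.1 in R 4.3.3, by normexp background correction with an offset of 50 and loess within arrays, with control spots given no weight. Outlier spots were dropped (86 to 147 per array) and spots of a probe averaged. Channel levels were also scaled between arrays (Aquantile).

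A probe was tested where 1 channel or both stood well above background on 3 or more arrays, which 29114 of 41012 did. The test was limma's moderated test (two-sided) of whether the mean log2 ratio of the 5 arrays is 0, and Benjamini-Hochberg adjustment covered all tested probes (threshold 0.05). The brightest probe stands for a gene. Symbols came from accessions, current or older symbols in RefSeq, and C7 and C8b were named by hand from the probe description. Genes named are all members with each probe, all listed other complement genes, and the 6 genes nearest to the complement median. Some listed genes are counted in these totals but not reported here by name. The members and lists were chosen with earlier results of these data known. Alternatives were no background subtraction, an offset of 0, median centring, the software's processed signals, the authors' deposited log2 ratios, other filters, each array left out, array weights, the sign of replicate 2 turned, a slide term and averaged probes. Positions are those of the probe columns (rn4). Promoters are RefSeq's (GRCr8). The number of arrays limits the precision.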

Additional observations from a re-analysis of the deposited data

Results flagged for a closer look

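The log2 ratios and the channel levels of the classical genes' probes, the other tested complement genes and the 6 genes nearest to the complement median were searched for an array far from the other 4. By Dixon's test (136 groups of 5, critical value 0.71) 5 groups were past the limit, and chance alone flags about 1 in 20. The saline level of the brighter C1s probe was 9.03 on replicate 4 and between 8.65 and 8.70 on the other arrays. The saline level of Cfd, the protease that cleaves factor B, was 9.31 on replicate 2 and between 8.24 and 8.30 on the others. The saline level of C4bpa was 7.28 on replicate 2 and between 7.03 and 7.09 on the others. The saline level of C8b was 6.57 on replicate 1 and between 6.68 and 6.72 on the others. The log2 ratio of Cd59, which blocks the lytic pore, was -0.21 on replicate 2 and between 0.49 and 0.59 on the others.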

How the results depend on the processing

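Positive means of all 9 classical genes, and the mean over arrays of their median (1.32, and 1.06 to 1.65 otherwise), held under every alternative run. The number of the 13 probes past the limma threshold was 0, and it was 13 with array weights and 0 to 1 with each array left out, the 1 being C1qb without replicate 2. Averaging a gene's probes gives no count of probes. Of the other complement genes 0 passed. With array weights 6 did (Cd59, Cfb, Cfi, Cr1l, Fcna, Masp1), beside 4.38% of all probes with kaolin higher, and with the sign of replicate 2 turned 2 did (Cd59, Masp1), beside 0.838%. With each array left out 0 to 2 did, the 2 again Cd59 and Masp1, without replicate 2, beside 2.41% of all probes. The cause was not tested. Without replicate 3 the classical adjusted p was 0.659. Signs turned for 4 genes. With median centring Cd46 was 0.013, Clu -0.040, Vtn -0.15 and Cd93 -0.13. With the sign of replicate 2 turned Vtn was -0.0094 and Cd93 -0.087. With each array left out Cd46 ranged from -0.064 to 0.018, Cd93 from -0.016 to 0.21 and Vtn from -0.046 to 0.12. The cause was not tested. Median centring also put the median of all tested probes at -0.03 to -0.15. The slide term rests on replicate 5 alone. The limma test of the log2 ratios is the paired analysis, since both conditions share each array.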
